A study of Homo sapiens with 4 samples.

Results

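Human loci with exactly 2 polyadenylation sites more than 200 and up to 1000 nt apart were described in HEK293 cells, an established line from embryonic kidney. Read 3′ ends of all libraries were pooled on chromosomes 1 to 22 and X. On each strand the most read position took all positions within 25 nt and formed a site, and sites whose level averaged 1 RPM or more over the 4 libraries were kept, where RPM is the read number scaled to the usual common library total. The most used site then took all sites of its strand within 10000 nt and formed a locus, and sites with at least 5% of the mean RPM of the locus were counted. Of 18156 loci, 962 held exactly 2 such sites at this distance, and 692 of these also had at least 50 reads over the pair in every library. The other 270 were left out for their low read number. The 692 loci made up 14.4% of the 4793 loci with at least 2 sites in which proximal and distal use could be compared. Of these 4793, which include the 692, 2583 held exactly 2 such sites. In the others the 2 most used sites were compared, at whatever distance. They were chosen on the mean level of both sites over all libraries, the depleted ones included, so these levels are a description and a site with most of its reads in a depleted library could be chosen through them.

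The 4 libraries came from cells harvested 3 days after an siRNA against CF Im 68, after an siRNA against CstF-64 or after a scrambled control siRNA, and from cells with no siRNA. All were of the same line, the siRNAs were delivered with Lipofectamine RNAiMAX, and each group was 1 library, so that the spread between cultures is unknown. Per the labels the depletion was checked by Western blot, for which no value was used here. The libraries held 12792623, 7343112, 13443454 and 15806975 reads in this order, and the median pair of the 692 loci had 461, 219.5, 448.5 and 502 reads. The siRNA letters given in the labels are shown because they define both depletions. Capitals mark the 19 specified bases of each 21-base strand, and n marks an unspecified base.
CF Im 68 siRNA: nnGACCGAGAUUACAUGGAUA
CstF-64 siRNA: nnCCUGAAUGGGCGCGAAUUC

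Most human pre-mRNAs are cleaved and polyadenylated downstream of a poly(A) signal, and many genes hold several such sites in a row. CF Im 68 is the larger subunit of cleavage factor I, a complex that binds UGUA elements upstream of the cleavage position. CstF-64 is the subunit of the cleavage stimulation factor that binds U- and GU-rich RNA downstream of it. Where both sites lie in 1 terminal exon, use of the proximal site gives the shorter 3′ UTR and leaves out the regulatory elements between the sites. The study depleted these factors to ask what each does to site choice. Loci are given by the positions of their sites on hg19 (1-based), without gene names and without genome sequence, since no annotation or genome of this build was used. Internal priming on A-rich stretches was not separated from true 3′ ends.

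The 692 loci lay on all 23 chromosomes used, 330 on the plus and 362 on the minus strand, with 84 on chromosome 1 and 7 on chromosome 18. The distance between the sites reached 998 nt, with its median at 513 nt and its quartiles at 330 and 742 nt. The mean level of a pair ran from 5.66 to 2829 RPM with a median of 33.6 RPM. In 473 loci the pair were the only sites above the RPM minimum within reach, and 219 loci held further sites that stayed below 5% of the locus. The pairs next to the distance limits are given as a description. Closest above the lower limit, the pair on chromosome 12 (plus strand) at 113629966 and 113630167 had a proximal share of 77.6% with CF Im 68 siRNA, 68.6% with CstF-64 siRNA, 78.1% with control siRNA and 84.5% without siRNA. At 200 nt, and thus outside, the pair on chromosome 6 (minus strand) at 8079829 and 8079629 had 95.3%, 93.3%, 91.1% and 90.1% in the same order. At 998 nt, the pair on chromosome 11 (minus strand) at 59405192 and 59404194 had 17.2%, 13.0%, 11.4% and 8.22%. The next outside, 1003 nt apart on chromosome X (plus strand) at 47088390 and 47089393, had 46.4%, 49.1%, 51.1% and 71.5%. The lowest library had 50 to 59 pair reads in 49 of the loci, 59 loci were left out at 40 to 49 reads, and the weaker site held less than 6% of its locus in 48.

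Proximal sites took a larger share of reads with CF Im 68 siRNA. The proximal share is the percentage of the pair's reads at the site nearer the 5′ end of the transcript. Its median over the 692 loci was 47.5% with CF Im 68 siRNA, 39.0% with CstF-64 siRNA, 36.0% with control siRNA and 37.5% without siRNA. The quartiles were 20.8 and 82.3% with CF Im 68 siRNA, 13.6 and 78.5% with CstF-64 siRNA, 12.5 and 76.1% with control siRNA and 12.5 and 75.8% without siRNA. The proximal site held the majority of reads in 332 loci with CF Im 68 siRNA, in 290 with CstF-64 siRNA, in 283 with control siRNA and in 297 without siRNA. These were 48.0%, 41.9%, 40.9% and 42.9% of the 692 loci, against 52.2%, 44.6%, 42.8% and 43.7% of all 4793 tested loci. The CF Im 68 library was highest at the median and at both quartiles, and the other libraries lay close together.

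A locus was counted as moved when its reads differed from control siRNA by a two-sided Fisher's exact test with a Benjamini-Hochberg adjusted p below 0.05 over all 4793 loci, and its proximal share lay at least 10 percentage points from both control siRNA and no siRNA in the same direction. Since no group had a second library, the test sets library against library and says nothing of conditions. With CF Im 68 siRNA 141 loci (20.4% of 692) moved to the proximal site, against 24.2% of all 4793 loci, and 13 (1.88%) moved to the distal site, against 2.63% of all. Both shares were below those of all tested loci, and the difference was not tested. The proximal share was larger than with control siRNA in 528 loci (76.3%, against 71.6% of all 4793 loci). It was smaller in 163 loci, and in 1355 of all 4793. Shares exceeded those with control siRNA by a median of 5.02 points, with quartiles of 0.236 and 11.8 points, and 4.60 points over no siRNA. Over all 4793 loci the corresponding medians were 4.84 and 5.23 points.

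CstF-64 siRNA came with fewer moves. After it, 47 loci (6.79%) moved to the proximal site, against 8.20% of all 4793 loci, and 19 (2.75%) moved to the distal site, against 3.59% of all. These shares, too, were below those of all loci. The CstF-64 library had the fewest reads. With all libraries thinned to its depth, 42 of 630 loci moved proximally and 15 distally with CstF-64 siRNA (6.67% and 2.38%, against 7.82% and 3.35% of 4388 tested loci). With CF Im 68 siRNA 120 and 11 did so (19.0% and 1.75%, against 22.6% and 2.53%). Shares exceeded those with control siRNA by a median of 1.17 points, with quartiles of −2.37 and 4.72 points, and 0.936 points over no siRNA. The proximal share was larger than with control siRNA in 404 loci (58.4%, against 56.1% of all 4793 loci). It was smaller in 286 loci, and in 2100 of all 4793. For scale, the controls differed by a median of −0.0810 points (control siRNA minus no siRNA) and a median absolute difference of 4.43 points.

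**Figure D1:**
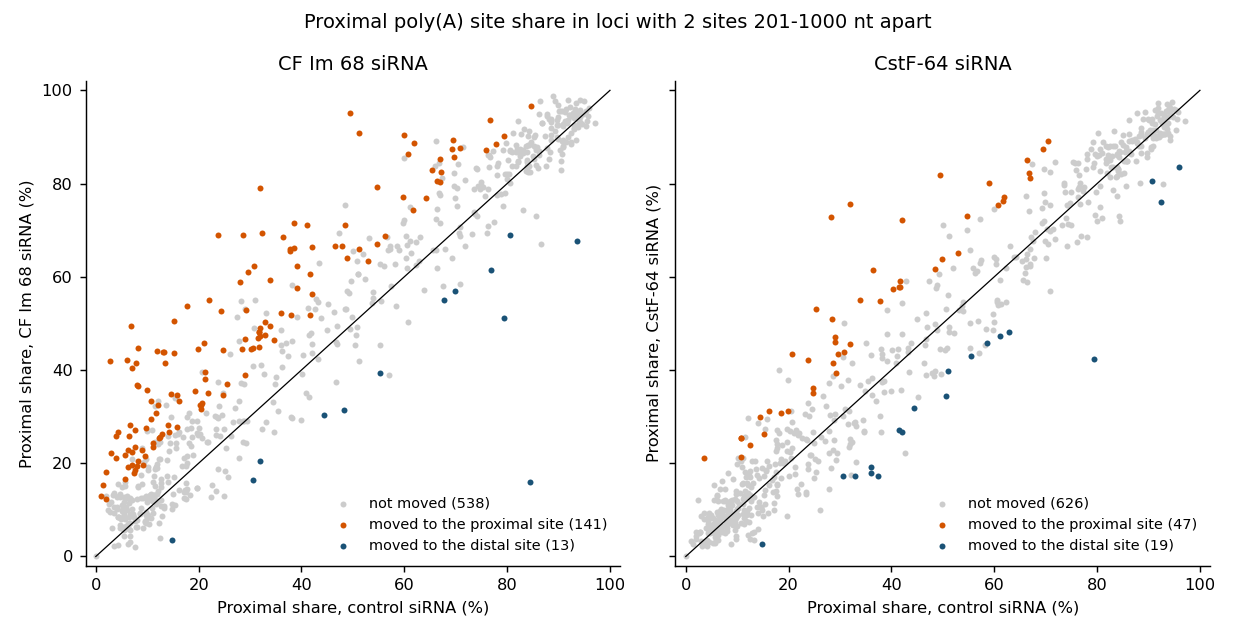
Proximal share (%) of each of the 692 loci with CF Im 68 siRNA (left) and with CstF-64 siRNA (right) on the vertical axis, against the share with control siRNA on the horizontal axis; the line marks equal shares. Coloured points are moved loci, 141 proximally and 13 distally on the left, and 47 and 19 on the right.

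Between the controls, the proximal share with control siRNA was larger than without siRNA in 343 loci (49.6%, against 51.3% of all 4793 loci). It was smaller in 349 loci, and in 2325 of all 4793. By the 2-library test, which used the adjusted p and the 10 points against a single library, control siRNA had a larger proximal share than no siRNA in 42 loci (6.07%, against 10.6% of all 4793 loci) and a smaller one in 77 (11.1%, against 11.1% of all). By the same test CF Im 68 siRNA gave 197 larger and 18 smaller shares against control siRNA, where 30.6% and 4.32% of all loci passed. Against no siRNA it gave 211 larger and 39 smaller, where 35.0% and 8.89% of all passed. The counts for CstF-64 siRNA were 59 larger and 25 smaller against control siRNA (10.6% and 5.28% of all) and 106 larger and 89 smaller against no siRNA (19.0% and 13.4% of all). Larger shares outnumbered smaller ones for both depletions and against either control, though only by 106 to 89 for CstF-64 siRNA against no siRNA.

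**Figure D2:**
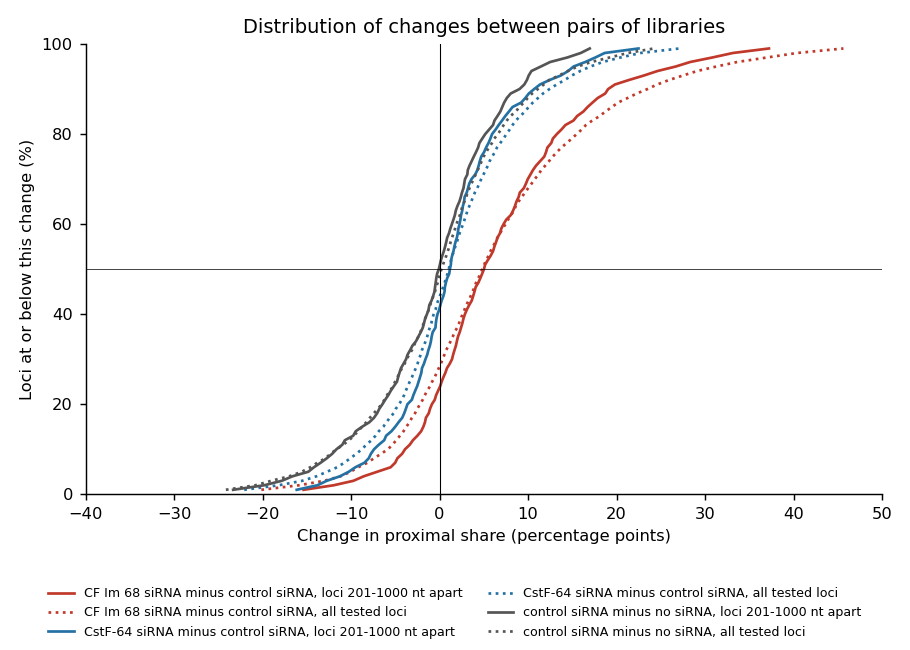
Percentage of loci (vertical axis) at or below a change in proximal share in percentage points (horizontal axis), for 3 pairs of libraries; solid lines are the 692 loci and dotted lines all 4793 tested loci. The CF Im 68 line crosses the middle at 5.02 points, the CstF-64 line at 1.17 points and the line of the controls at −0.0810 points.

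Set against each other, the CF Im 68 library had the larger proximal share in 154 loci and the smaller one in 20 by the 2-library test, where 24.9% and 5.05% of all 4793 loci passed. The median difference was 3.34 points, with quartiles of −0.953 and 9.88 points. The lists of both depletions were also compared with no control in common. Of the 197 loci larger with CF Im 68 siRNA than with control siRNA and the 106 larger with CstF-64 siRNA than without siRNA, 51 were shared, which is 25.9% of the first list and 48.1% of the second. These lists held 28.5% and 15.3% of the 692 loci. Over all 4793 loci the shared part was 28.3% and 45.6%, and the lists held 30.6% and 19.0% of loci. With the controls exchanged, 39 loci were shared by lists of 211 and 59, which is 18.5% and 66.1%, beside 20.0% and 65.7% over all 4793 loci.

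Among the moves to the proximal site with CF Im 68 siRNA, the 8 largest exceeded the pooled controls by at least 35.7 points. On chromosome 20 at 60550413 and 60549855 (minus strand), 558 nt apart, the proximal share was 68.9% with CF Im 68 siRNA (exact Clopper-Pearson 95% interval 63.4 to 74.1, 309 reads) and 42.2% with CstF-64 siRNA (31.4 to 53.5, 83 reads), against 23.8% with control siRNA (17.5 to 31.0) and 13.7% without siRNA (8.70 to 20.2). The proximal site stood at 16.7 RPM with CF Im 68 siRNA, 4.77 RPM with CstF-64 siRNA, 2.90 RPM with control siRNA and 1.33 RPM without siRNA, and the distal site at 7.50, 6.54, 9.30 and 8.35 RPM. Here the proximal site differed most between libraries and the distal site little. The adjusted p from Fisher's exact test was 3.07e-20 for CF Im 68 against control siRNA and 0.0163 for CstF-64 against control siRNA. The choice of this locus used the first of these.

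Several loci used a proximal site that was minor in the controls for a large part of their reads with CF Im 68 siRNA. On chromosome 6 at 117869961 and 117870958 (plus strand), 997 nt apart, the share was 49.5% with CF Im 68 siRNA (45.7 to 53.3, 693 reads), 10.2% with CstF-64 siRNA (6.97 to 14.4), 6.92% with control siRNA (4.86 to 9.49) and 3.48% without siRNA (2.19 to 5.22). Its proximal site had 26.8, 3.95, 2.60 and 1.39 RPM in this order, and its distal site 27.4, 34.6, 35.0 and 38.6 RPM. The CF Im 68 library lay far above the others, and CstF-64 and control siRNA had an adjusted p of 0.24 by Fisher's exact test. On chromosome 11 at 9610474 and 9611299 (plus strand) the share was 42.1% with CF Im 68 siRNA, 12.9% with CstF-64 siRNA, 6.09% with control siRNA and 5.63% without siRNA. On chromosome 5 at 131730669 and 131731306 (plus strand), with 57 to 117 reads per library, it was 41.9% (32.8 to 51.4), 5.26% (1.10 to 14.6), 2.82% (0.343 to 9.81) and 8.06% (2.67 to 17.8). There the proximal site had 3.83, 0.409, 0.149 and 0.316 RPM, and the CF Im 68 library supplied 81.4% of its level. This site passed the minimum of 1 RPM only through the CF Im 68 library, so its gap is a description and no further support.

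The deepest locus of this group was on chromosome 10 (plus strand) at 85912301 and 85912931, 630 nt apart. Its proximal share was 53.8% of 6789 reads with CF Im 68 siRNA, 24.2% of 5261 with CstF-64 siRNA, 17.8% of 7207 with control siRNA and 18.3% of 9335 without siRNA. The proximal site had 285, 173, 95.4 and 108 RPM, and the distal site 245, 543, 441 and 483 RPM. The proximal site was higher and the distal site lower with CF Im 68 siRNA, while the locus total was 567 RPM with CF Im 68 siRNA and 579 RPM with control siRNA. On chromosome 5 at 54720808 and 54721407 (plus strand) the share was 71.6% with CF Im 68 siRNA (68.1 to 74.9), 37.7% with CstF-64 siRNA (30.5 to 45.3), 38.5% with control siRNA (33.2 to 44.0) and 33.4% without siRNA (29.0 to 38.1), and the CF Im 68 interval overlapped none of the others. Its distal site was nearly level at 15.9, 14.8, 15.0 and 18.3 RPM, while the proximal site had 40.02, 8.99, 9.37 and 9.17 RPM. The pair on chromosome 19 (minus strand) at 3053160 and 3052908, at 252 nt the closest of the 8, had 69.3%, 41.5%, 32.3% and 31.1%, and there the proximal site was level between CF Im 68 siRNA and control siRNA (52.1 and 52.3 RPM) while the distal site had 23.1 and 110 RPM.

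Moves to the distal site with CF Im 68 siRNA were few. The 8 largest spanned 14.1 to 68.3 points, and the largest, on chromosome 1 (plus strand) at 66101111 and 66102008, had a distal site at 19.2 RPM with CF Im 68 siRNA, 2.18 RPM with CstF-64 siRNA, 1.86 RPM with control siRNA and 1.08 RPM without siRNA. On chromosome 19 at 37035294 and 37034518 (minus strand), 776 nt apart, the proximal share was 67.7% with CF Im 68 siRNA (62.6 to 72.6), 97.1% with CstF-64 siRNA (93.3 to 99.05), 93.6% with control siRNA (89.9 to 96.2) and 94.8% without siRNA (92.0 to 96.8). Its proximal site was at 18.7, 22.7, 18.4 and 21.8 RPM and its distal site at 8.91, 0.681, 1.26 and 1.20 RPM. The CF Im 68 library supplied 73.9% of the level of this distal site. On the mean of the other libraries the distal site would have stayed below 5% of its locus. The locus was thus chosen through the CF Im 68 library, and its gap is a description and no further support. On chromosome 19 at 53741850 and 53741546 (minus strand), 304 nt apart, both depleted libraries were low. The share was 51.2% with CF Im 68 siRNA (40.1 to 62.1, 86 reads) and 42.4% with CstF-64 siRNA (29.6 to 55.9, 59 reads), against 79.3% with control siRNA (69.6 to 87.1) and 80% without siRNA (72.8 to 86.0).

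In other loci of this group control siRNA already lay below no siRNA. On chromosome 16 at 88874918 and 88875663 (plus strand), the share was 56.9% of 5373 reads with CF Im 68 siRNA, 67.8% of 4210 with CstF-64 siRNA, 69.8% of 6091 with control siRNA and 81.5% of 9290 without siRNA. On chromosome 3 at 49396930 and 49396581 (minus strand) it was 31.5%, 38.7%, 48.4% and 53.7%, and on chromosome 1 (plus strand) at 22419230 and 22419438, 208 nt apart, 20.5%, 24.1%, 31.9% and 37.5%. In these 3 loci both depleted libraries and the control siRNA library lay below the library without siRNA, and the adjusted p between the controls ran from 2.18e-60 to 0.00203 by Fisher's exact test. The part of the siRNA treatment itself in such moves was not tested.

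**Figure D3:**
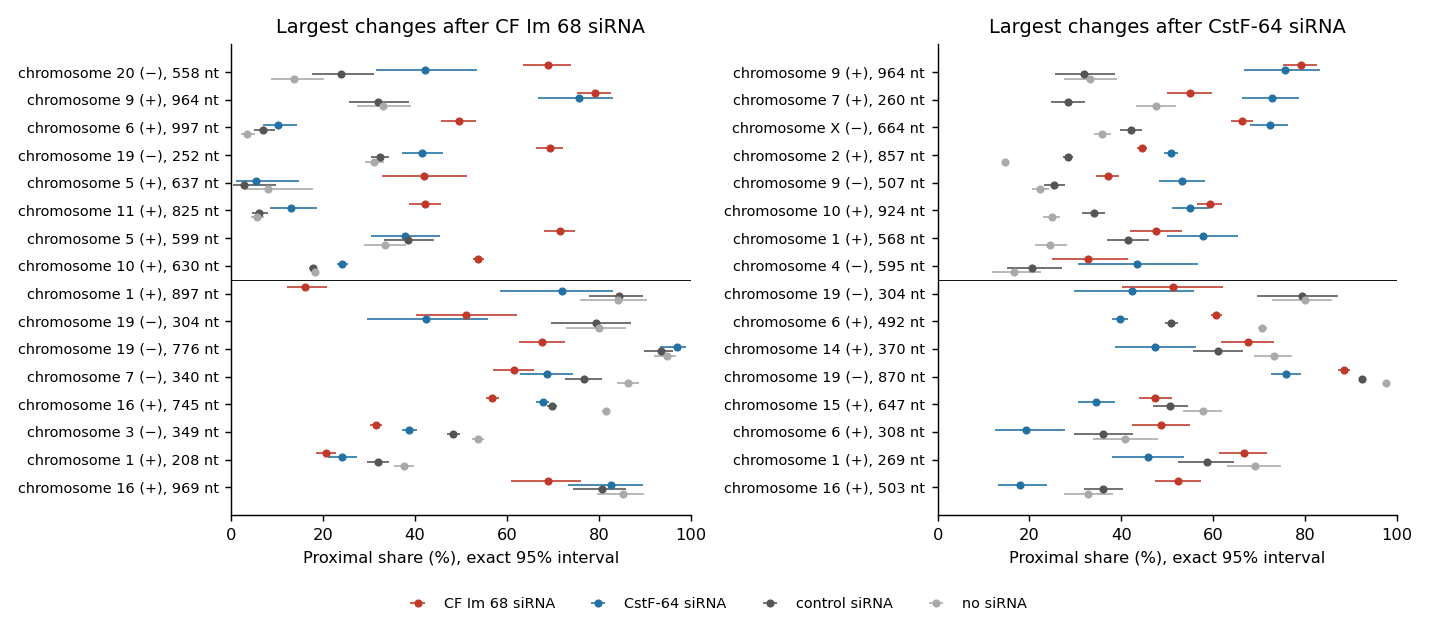
Proximal share (%) with its exact 95% interval in the 4 libraries, for the 8 largest proximal moves (above the line) and the 8 largest distal moves (below it) with CF Im 68 siRNA (left) and CstF-64 siRNA (right); loci are given by chromosome, strand and distance between the sites. The CF Im 68 points of the upper left group lie at 41.9 to 79.1%, and the control siRNA points at 2.82 to 38.5%.

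The 8 loci that moved furthest to the proximal side with CstF-64 siRNA spanned 24.7 to 43.1 points. On chromosome 7 at 38270010 and 38270270 (plus strand), 260 nt apart, the share was 54.9% with CF Im 68 siRNA (49.99 to 59.7), 72.9% with CstF-64 siRNA (66.3 to 78.7), 28.3% with control siRNA (24.8 to 32.1) and 47.6% without siRNA (43.3 to 51.9), and the controls differed as well. On chromosome X at 99884691 and 99884027 (minus strand), 664 nt apart, it was 66.3%, 72.3%, 42.1% and 35.9% in the same order, and both depleted libraries lay above both controls. On chromosome 2 at 217070147 and 217071004 (plus strand) it was 44.5% of 7823 reads, 50.8% of 4024, 28.4% of 6922 and 14.7% of 9358. The pair on chromosome 9 (minus strand) at 15464574 and 15464067 had 37.0%, 53.2%, 25.4% and 22.3%, with a distal site at 72.5, 25.2, 75.7 and 98.1 RPM that was low with CstF-64 siRNA alone. There the CF Im 68 and CstF-64 libraries differed with an adjusted p of 8.07e-08 by Fisher's exact test. On chromosome 9 at 128728690 and 128729654 (plus strand) both depletions gave nearly the same share, 79.1% with CF Im 68 siRNA and 75.7% with CstF-64 siRNA, with a difference of 3.43 points and an adjusted p of 0.584 by Fisher's exact test, which does not show that they act alike.

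Toward the distal site, the 8 largest moves with CstF-64 siRNA spanned 16.8 to 37.4 points. On chromosome 6 at 36570068 and 36570560 (plus strand), the share was 60.7% of 6802 reads with CF Im 68 siRNA, 39.7% of 3394 with CstF-64 siRNA, 50.9% of 5483 with control siRNA and 70.7% of 7678 without siRNA, so that the CstF-64 library was lowest and the controls lay far apart. On chromosome 19 at 1598048 and 1597178 (minus strand) it was 88.5%, 76.0%, 92.5% and 97.6%, with a proximal site at 177, 70.1, 309 and 621 RPM and a distal site at 22.9, 22.2, 25.1 and 15.2 RPM. Here the proximal site set the libraries apart and the distal site stayed within a narrow range. On chromosome 15 at 75503862 and 75504509 (plus strand) the share was 47.4% with CF Im 68 siRNA (43.8 to 51.0), 34.5% with CstF-64 siRNA (30.7 to 38.5), 50.7% with control siRNA (46.8 to 54.5) and 57.7% without siRNA (53.5 to 61.8). Its proximal site was at 28.6, 27.5, 25.5 and 20.4 RPM, and its distal site, highest with CstF-64 siRNA, at 31.7, 52.2, 24.8 and 14.9 RPM.

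Of the 66 loci that moved with CstF-64 siRNA, 8 (12.1%) had a CF Im 68 share within 5 points of both controls, which is 1.16% of the 692 loci, against 1.21% of all 4793. Among all 4793 loci this was 10.3% of the 565 that moved with CstF-64 siRNA. On chromosome 22 at 29153201 and 29153495 (plus strand), the share was 43.3% with CF Im 68 siRNA (37.5 to 49.3), 57.4% with CstF-64 siRNA (50.005 to 64.5), 40.4% with control siRNA (34.9 to 46.0) and 42.3% without siRNA (37.3 to 47.4). On chromosome X at 119660551 and 119660157 (minus strand) it was 63.4%, 48.1%, 62.9% and 63.1%, and the CstF-64 library alone stood apart. The adjusted p of CF Im 68 against CstF-64 siRNA was 0.00842 and 0.000389 for these loci by Fisher's exact test. Both loci were chosen for such a gap, so neither the gap nor its p-values are further support.

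Of the 6 loci with the most reads, 1 moved with each depletion. The pair on chromosome 14 (minus strand) at 104378854 and 104378626, at a mean of 2829 RPM, had a proximal share of 82.9% with CF Im 68 siRNA, 86.5% with CstF-64 siRNA, 83.9% with control siRNA and 85.6% without siRNA. On chromosome 21 at 33040987 and 33041237 (plus strand) the share was 87.5%, 81.3%, 82.4% and 86.5%. Differences of a few points passed Fisher's exact test at this depth and not the 10 points. The pair on chromosome 19 (plus strand) at 38874115 and 38874464 moved with CstF-64 siRNA, with 51.3%, 63.9%, 49.9% and 49.5%, and that on chromosome 22 (minus strand) at 42070820 and 42069938 with CF Im 68 siRNA, with 68.8%, 60.7%, 56.2% and 58.5%.

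The share of loci that moved to the proximal site with CF Im 68 siRNA was smallest where the sites were closest. It was 14.6% of 253 loci up to 400 nt, 22.1% of 154 above 400 and up to 600 nt, 21.8% of 147 above 600 and up to 800 nt and 27.5% of 138 above 800 nt. With CstF-64 siRNA it was 5.14%, 6.49%, 7.48% and 9.42%, while moves to the distal site were 9, 7, 1 and 2 loci. The differences between the classes were not tested. The pooled control share also went with distance, with medians of 45.8%, 37.7%, 25.7% and 28.0% in the 4 classes, and its part in these shares was not tested. By starting share in the pooled controls, 74 of 286 loci (25.9%) below 25% moved to the proximal site with CF Im 68 siRNA. It was 41 of 120 (34.2%) at 25 to 50%, 23 of 107 (21.5%) at 50 to 75% and 3 (1.68%) above 75%. Moves to the distal site were 1, 3, 3 and 6 in the same order. These classes were formed on the control libraries that the calls also used, and the part of this in the pattern was not tested. In 4 equal groups of loci by pair RPM, from low to high, 21.4%, 16.2%, 23.1% and 20.8% moved to the proximal site.

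**Figure D4:**
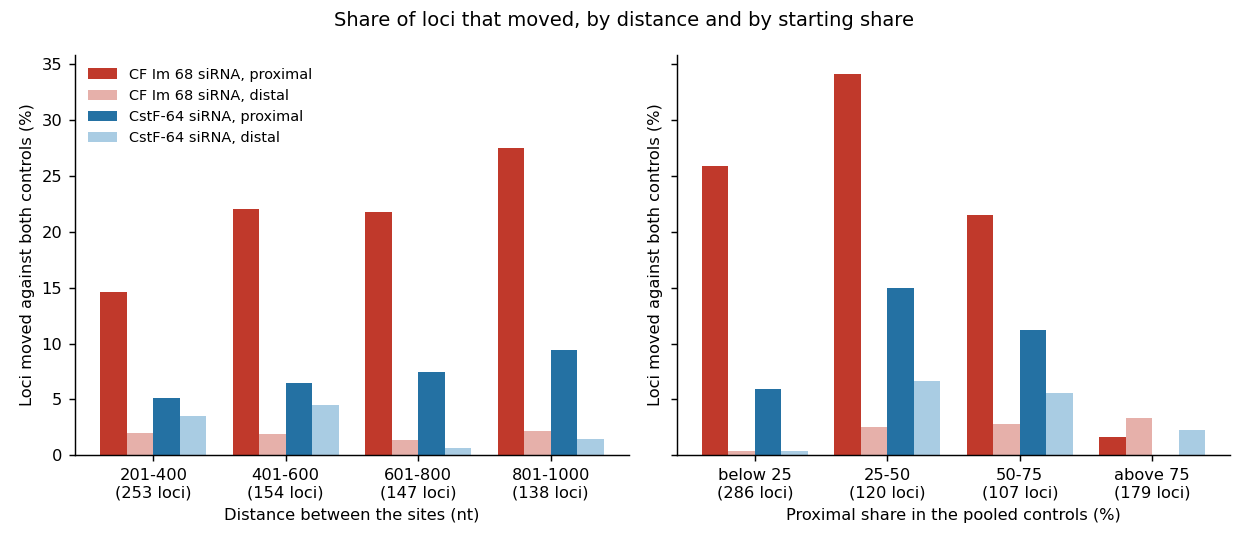
Percentage of loci moved against both controls (vertical axis), by distance between the sites in nt (left) and by proximal share in the pooled controls in % (right); bars give each depletion and direction, and the number of loci stands under each class. The share moved to the proximal site with CF Im 68 siRNA runs from 14.6% up to 400 nt to 27.5% above 800 nt.

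The 2-site loci of other distances are given for comparison, and the differences were not tested. The 20.4% of the 692 loci that moved to the proximal site with CF Im 68 siRNA stood beside 6.45% of 558 loci with sites 26 to 200 nt apart, and the 6.79% with CstF-64 siRNA beside 5.38%. Of 979 loci with 2 sites above 1000 and up to 5000 nt apart it was 29.6% and 7.56%. Measured in genome positions, the mean distance of the 3′ end behind the proximal site was 279 nt with CF Im 68 siRNA and 306 nt with CstF-64 siRNA. It was 316 nt with control siRNA and 313 nt without siRNA. The median change from control siRNA was −21.2 nt with CF Im 68 siRNA, with quartiles of −58.5 and −1.07 nt, and −4.51 nt with CstF-64 siRNA. At least 100 nt separated the CF Im 68 library from control siRNA in 97 shorter and 8 longer loci, and the CstF-64 library in 34 shorter and 8 longer ones. Against no siRNA these were 97 shorter and 10 longer for CF Im 68 siRNA and 45 shorter and 27 longer for CstF-64 siRNA. For control siRNA against no siRNA they were 9 shorter and 21 longer. All these counts are of the 692 loci. Shares over all tested loci are not given for them, so they do not show whether the 692 loci differ from other loci.

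In RPM, the median proximal site was higher with CF Im 68 siRNA than in either control. The median log2 ratio to control siRNA, of RPM plus a pseudocount of 1, was 0.32 at proximal and −0.12 at distal sites of the 692 loci, and 0.30 and −0.10 over all 4793 loci. Against no siRNA the medians were 0.41 and −0.02 in the 692 loci, and the distal one turned to 0.0087 when RPM used only reads on chromosomes 1 to 22 and X. With CstF-64 siRNA the medians were −0.01 and −0.14 over control siRNA, and 0.07 and −0.06 over no siRNA. The median over the totals of all 17877 loci with at least 50 reads was itself −0.19 for CstF-64 over control siRNA, and −0.0026 with TMM scaling. With TMM scaling the medians of CstF-64 over control siRNA were 0.17 at proximal and 0.06 at distal sites, so that the sign turned at both kinds of site. Those of CF Im 68 over control siRNA were 0.29 and −0.15. In the 141 loci moved to the proximal site with CF Im 68 siRNA, the proximal site was higher and the distal site lower than with control siRNA in 105, both were higher in 25 and both lower in 11. Their median log2 ratios were 0.95 at the proximal and −0.41 at the distal site. In the 47 loci moved to the proximal site with CstF-64 siRNA the median log2 ratios were 0.31 and −0.75, or 0.52 and −0.54 with TMM scaling. In the 13 loci moved to the distal side with CF Im 68 siRNA they were −0.49 and 0.54. In the 19 moved to the distal side with CstF-64 siRNA they were −0.84 and 0.08, or −0.67 and 0.29 with TMM scaling. A call fixes on which side of the pair the log2 ratio is the higher, but not which of the pair changes by more.

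**Figure D5:**
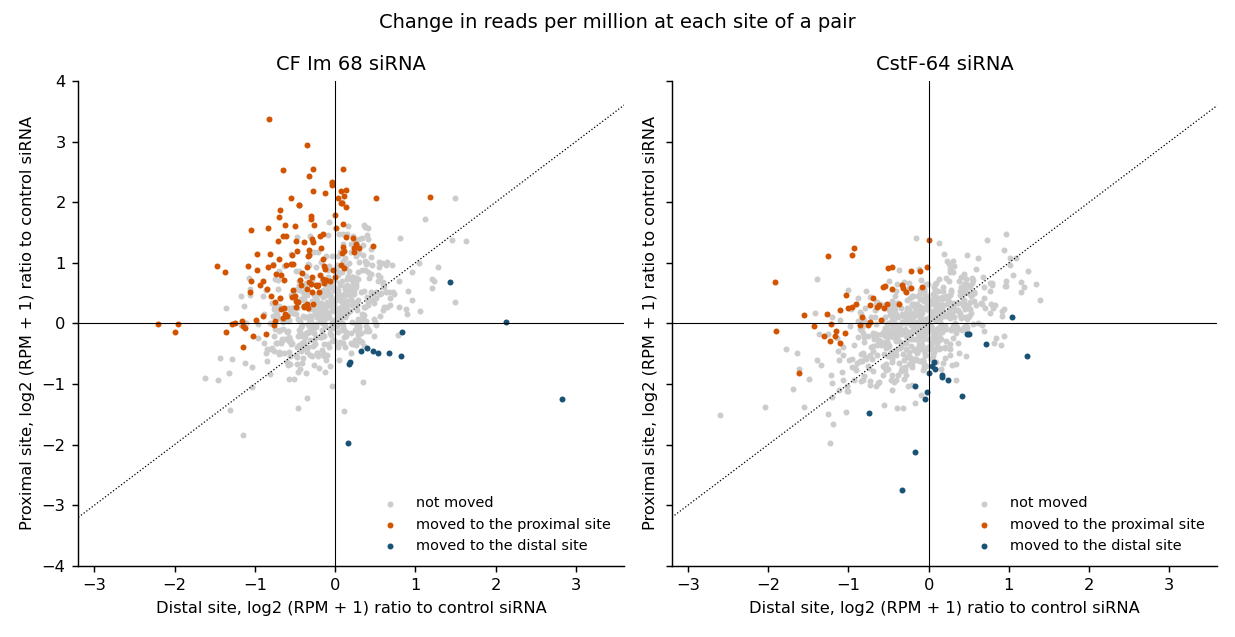
Log2 ratio of RPM + 1 to control siRNA at the proximal site (vertical axis) against that at the distal site (horizontal axis), with CF Im 68 siRNA (left) and CstF-64 siRNA (right); each point is 1 of the 692 loci and the dotted line marks equal changes. On the left, 105 of the 141 proximally moved loci lie in the upper left quadrant.

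The total was at least 2-fold higher with CF Im 68 siRNA than in both controls in 16 of the 692 loci (2.31%) and at least 2-fold lower in 7 (1.01%). With CstF-64 siRNA it was higher in 5 (0.723%) and lower in 22 (3.18%). With TMM scaling CstF-64 siRNA had 11 higher (1.59%) and 14 lower (2.02%), against 1.19% and 1.38% of all 4793 loci. The minimum of 50 pair reads in every library leaves out loci with low totals in any library. Under the same minimum and by total reads, 3.40% of all 4793 loci were higher and 0.501% lower with CF Im 68 siRNA. With CstF-64 siRNA 0.542% were higher and 2.69% lower. Of 17877 loci without that minimum they were 5.02%, 1.86%, 1.82% and 6.11%. No test was made of totals with 1 library per group. In a library of a whole culture, fewer cells with a transcript and less RNA per cell cannot be told apart.

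Reads were concentrated to a like degree at proximal and distal sites. The most read position held a median of 67.1% of the reads of a proximal site, with quartiles of 48.5 and 83.1%, and 65.9% of a distal site, with quartiles of 48.9 and 83.7%. The proximal site was the sharper of the pair in 341 loci and the distal site in 351. At proximal sites the median share of the most read position was 68.3% with CF Im 68 siRNA, 68.3% with CstF-64 siRNA, 66.1% with control siRNA and 65.2% without siRNA, and at distal sites 67.5%, 68.1%, 66.0% and 64.8%. Sites with more than 80% of reads at 1 position numbered 205 among proximal and 214 among distal sites. Reads between the sites and more than 25 nt from either came to 1.21% of the pair reads with CF Im 68 siRNA, 1.03% with CstF-64 siRNA, 1.14% with control siRNA and 1.05% without siRNA.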

How the data were processed

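A-seq reads of 4 HEK293 libraries, 1 per group, were deposited as unnormalized read counts at each 3′ end position of either strand, on hg19 per the submitters' processing notes. Neither the aligner nor the treatment of multiply matching reads is known, as they are not given in the sources used here. Running numbers of the positions skip 10.2 to 12.2% of the numbers, for reasons that no source used here states. RPM used all reads of a library. Positions, sites, loci and calls were computed with Python 3.11.15, NumPy 2.4.6, pandas 2.3.3 and SciPy 1.17.1, and TMM factors with edgeR 4.0.16. The pair test was tested on simulated data, in which reads were drawn at random from set shares with no further spread between libraries. That simulation therefore cannot show how often libraries of the same condition would differ by the test. Members, lists and tests were chosen with earlier results of these data known. Loci named in the text are the 8 largest rises and falls per depletion among moved loci, the 6 most read, those moved in opposite directions, the 4 largest of those moved by CstF-64 siRNA alone, the 3 with the largest difference between controls, and those next to the distance limits; not all are described. The 24 loci on chromosome 8 were counted and not named. Exact intervals cover counting error only, since each group was 1 library. No molecular identifiers are given in the labels, so copies of the same molecule could not be told from separate molecules. The intervals and Fisher's exact tests took every read as separate, so intervals may be too narrow and p-values too small. Alternatives changed the site radius, minimum levels, locus radius, call thresholds, controls, libraries that chose the sites, depth and scaling.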

Additional observations from a re-analysis of the deposited data

Results flagged for a closer look

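Of the 692 loci, 2 (0.289%) moved in opposite directions after the depletions, against 8 of all 4793 loci (0.167%). On chromosome 16 at 74339682 and 74340185 (plus strand), 503 nt apart, the proximal share was 52.3% with CF Im 68 siRNA (47.4 to 57.3), 18.0% with CstF-64 siRNA (13.1 to 23.7), 36% with control siRNA (31.9 to 40.3) and 32.7% without siRNA (27.5 to 38.2). These are changes of 17.6 and −16.8 points from the pooled controls. On chromosome 12 at 124105014 and 124105491 (plus strand), 477 nt apart, it was 47.5% with CF Im 68 siRNA (43.9 to 51.2), 17.3% with CstF-64 siRNA (13.3 to 22.04), 33.0% with control siRNA and 29.3% without siRNA, with changes of 16.6 and −13.6 points. The proximal site was at 16.7 and 27.2 RPM with CF Im 68 siRNA and at 5.31 and 7.22 RPM with CstF-64 siRNA in these loci. The depleted libraries differed from each other with adjusted p of 3.35e-16 and 1.08e-19 by Fisher's exact test, which compares 2 libraries. Moves in opposite directions fix such a gap in advance, so these p-values are no further support for it.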

How the results depend on the processing

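No paired analysis was possible because each group holds 1 library. At a minimum of 20 points, not 10, 47 of the 692 loci (6.79%) moved proximally and 3 (0.434%) distally with CF Im 68 siRNA. Among all 4793 loci 10.2% and 0.542% did so. With CstF-64 siRNA 9 (1.30%) and 1 (0.145%) moved, against 2.30% and 1.02% of all. By the 2-library test at this minimum, 6 were larger and 14 smaller in control against no siRNA. In CF Im 68 against CstF-64 siRNA 57 were larger and 2 smaller. Shares over all loci are not given for these 2-library counts. With no siRNA as the single control, 39 loci moved to the distal site with CF Im 68 siRNA, and with CstF-64 siRNA 106 moved proximally and 89 distally. With sites of at least 10% of their locus, the median change with CF Im 68 siRNA was 6.61 points over control siRNA and 5.65 over no siRNA, and −28.0 nt in mean end distance. Thinned to the smallest library, 12 loci were smaller in CF Im 68 against CstF-64 siRNA. With TMM factors, totals with CstF-64 siRNA were higher in 11 and lower in 14 loci (1.59% and 2.02% of 692), against 1.19% and 1.38% of all 4793. The median log2 ratios of CstF-64 over control siRNA at proximal and distal sites were then 0.17 and 0.064, against −0.01 and −0.14 by total reads. Median-of-ratios factors gave totals higher in 12 (1.73%) and lower in 14 (2.02%), against 1.31% and 1.31% of all 4793 loci. With sites chosen on the control libraries alone, 138 of 709 loci (19.5%) moved proximally and 12 (1.69%) distally with CF Im 68 siRNA, against 20.4% and 2.58% of 4574 tested loci, and 50 (7.05%) and 19 (2.68%) with CstF-64 siRNA, against 8.44% and 3.78%. Of 189 recomputed values, 168 were counts within 1.5 times the reported one or medians within its 95% order-statistic interval. Another 20 were not, and 1 was a median that changed sign where the reported interval excluded 0. Sign changes of medians whose reported interval held 0 are not counted in this 1. RPM by chromosomes 1 to 22 and X was chosen after seeing the data. Of 52 named loci, 1 had no value with positions joined within 10 nt and 4 none when thinned. The causes of these changes were not tested.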

Other observations

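The loci with the largest difference between the control libraries were not among those that moved. A move needs a share at least 10 points beyond both controls, which a wide gap between the controls makes harder to meet. Their absence from the moved loci is thus largely set by the rule. On chromosome 11 at 72466536 and 72465775 (minus strand), the proximal site had 198 of 335 reads without siRNA and none in the other libraries. Taken as 3 reads over the reads of the pair, 0 of 165 reads with CF Im 68 siRNA allow a share of up to 1.82%, 0 of 69 with CstF-64 siRNA up to 4.35% and 0 of 163 with control siRNA up to 1.84%. The upper limits of the two-sided exact interval given for other shares were 2.21%, 5.21% and 2.24%. This site was a single position, and it was the only one in the 692 loci that a single library supplied to 99% or more. Its distal site was at 12.9 RPM with CF Im 68 siRNA, 9.40 RPM with CstF-64 siRNA, 12.1 RPM with control siRNA and 8.67 RPM without siRNA.

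On chromosome 6 at 5999075 and 5998235 (minus strand) the proximal share was 19.0% with CF Im 68 siRNA (14.3 to 24.4), 9.74% with CstF-64 siRNA (5.55 to 15.6), 11.8% with control siRNA (9.52 to 14.5) and 40.9% without siRNA (36.5 to 45.5). The 3 libraries with an siRNA lay below the one without. On chromosome 14 at 55820082 and 55820328 (plus strand) it was 53.0% with CF Im 68 siRNA (46.6 to 59.4), 30.6% with CstF-64 siRNA (21.0 to 41.5), 29.0% with control siRNA (21.7 to 37.1) and 57.2% without siRNA (48.8 to 65.4). Against control siRNA alone this locus would count as a move to the proximal site with CF Im 68 siRNA, with 24.1 points, and against no siRNA the change was −4.20 points.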
